A study of Homo sapiens with 54 samples.

Results

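HT-29 is an adherent human colorectal adenocarcinoma cell line. The comparison described here is that of sensitive HT-29 cells treated with 5-fluorouracil (5-FU, 10 μM, 24 h) against sensitive HT-29 cells treated with uracil (10 μM, 24 h), the natural pyrimidine base that differs from the drug by lacking its fluorine. It comprises 6 of the 54 libraries of the series, 3 per treatment, taken by their cell line, 5-FU-sensitivity and treatment labels. The series also holds DLD-1 and HCT-116 cells, and libraries labelled as derivatives of each line selected for growth in 5-FU. In another condition the medium was changed after 5-FU and the cells were X-irradiated at the median lethal dose of the line. Sensitive here means the parental line before that selection. Total RNA of biological triplicates was poly(A)-selected and sequenced as directional paired reads, so transcripts without a poly(A) tail are poorly represented. The 3 irradiated libraries of sensitive HT-29 (5-FU with irradiation) shared the fit and are given beside the result, and the sensitive HCT-116 and DLD-1 libraries under uracil and under 5-FU, with the same dose and time, serve to show where HT-29 differed.

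5-FU enters cells as a pyrimidine base and is built into nucleotides that act at several points. One product binds and blocks thymidylate synthase, the enzyme that makes thymidylate for DNA, and others are incorporated into DNA and into RNA, including the ribosomal RNA precursor.

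Total estimated counts were between 39727889 and 66422190 in the uracil libraries and between 60930492 and 82963199 in the 5-FU libraries, so the treated samples were on the whole the more deeply sequenced. Replicates of a group correlated with each other at r between 0.991 and 0.995 on the log2(TPM + 1) scale (TPM, the deposited expression value scaled for transcript length and library size). The epithelial markers EPCAM, KRT8 and KRT18 were high in each library, with a summed level of the colorectal epithelium list between 9172 and 10027 TPM under uracil and between 14481 and 14634 TPM under 5-FU. The summed levels of the fibroblast and smooth muscle list were between 1.57 and 2.33 TPM under uracil and between 4.28 and 5.81 TPM under 5-FU, and those of the endothelium list between 2.399 and 3.33 TPM and between 6.32 and 6.94 TPM. The defining markers THY1, KDR and MS4A1 were listed at 0 TPM in the 6 libraries, and nearly all of the summed level of the leukocyte list, which was between 1429.9 and 1567 TPM under uracil and between 1621 and 1685 TPM under 5-FU, came from lysozyme (LYZ). The intestinal transcription factor genes CDX1 and CDX2, which are on the epithelial list, were near 0, with means of 0.184 and 0.194 TPM under uracil and of 0.164 and 0.318 TPM under 5-FU. Of the tested members, 2 of 12 epithelial markers were called higher under 5-FU and 1 lower, and 3 of 5 leukocyte markers were called higher and 1 lower. As these are bulk samples, more cells of a kind and more RNA of a gene per cell cannot be told apart.

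5-FU changed a wide part of the HT-29 transcriptome, and among changes of at least 2-fold most were upward. Of 21573 genes tested, 2092 rose (9.7%) and 730 fell (3.38%), 13.1% in all, in edgeR's quasi-likelihood test with p adjusted by Benjamini and Hochberg (threshold 0.01) and at least a 2-fold change. Thus 74.1% of the called genes were higher, and with library size as the sole scaling, 2610 rose, 454 fell and 85.2% of the called genes were higher. Without the 2-fold limit, by adjusted p alone, the balance turned, with 5275 genes higher and 5703 lower. The median log2 fold change over all genes was 0.04 under the scaling used (trimmed mean of M values, TMM) and 0.19 by library size, a shift of 0.15. For the 9492 genes of at least 10 TPM, the log2 ratio of the TPM values was a median of 0.24 above the fitted log2 fold change. For single genes, such as ABCB1 and PECAM1, the gap between the TPM ratio and the fitted value was larger and could be of either sign. Of 13925 protein-coding genes tested, 1290 rose and 526 fell, and of 1507 long non-coding RNA genes 193 rose and 45 fell.

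**Figure D1:**
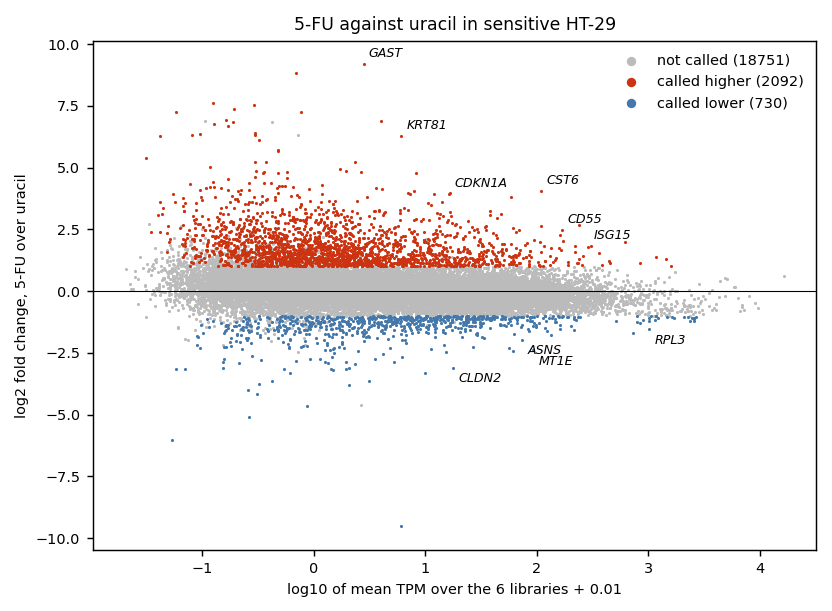
Log2 fold change of 5-FU over uracil (vertical axis) against log10 of the mean TPM over the 6 libraries with 0.01 added (horizontal axis), 1 point per gene tested in sensitive HT-29. The 2092 genes called higher (red) outnumber the 730 called lower (blue), and among the abundant genes RPL3, a ribosomal protein gene, lies below 0.

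Among genes with a symbol that is not a clone name, a mean of at least 10 TPM in a group and more than 3 counts in at least 1 library of the lower group, the 12 largest increases included several epidermal and barrier genes and CDKN1A. KRT81, a hair keratin located at chr12:52285913-52291534 (GRCh38), was at 0.176, 0.07401 and 0.149 TPM in the 3 uracil libraries and at 11.7, 12.05 and 12.1 TPM in the 3 5-FU libraries. The groups were far apart, with a log2 fold change of 6.26 ± 0.17 (± SE here and below, adjusted p = 4.87e-15). CST6, the secreted cysteine protease inhibitor cystatin E/M of the epidermis (chr11:66012008-66013505), was at 11.3, 11.01 and 9.91 TPM under uracil and at 214, 204 and 203 TPM under 5-FU. Its log2 fold change of 4.05 ± 0.08 (adjusted p = 8.01e-17) came with a mean of 207 ± 5.82 TPM (SD, n = 3), the highest level reached among the 12 largest increases. CDKN1A, which encodes the cyclin-dependent kinase inhibitor p21 (chr6:36676460-36687337), was at 1.51, 1.94 and 2.199 TPM under uracil and at 30.5, 30.7 and 31.4 TPM under 5-FU. All the treated libraries thus lay above the control libraries, and its log2 fold change was 3.92 ± 0.08 (adjusted p = 8.62e-17).

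The other 9 of the 12 largest increases were UPK2, a urothelial plaque protein (log2 fold change 4.77 ± 0.14), FAM25A (4.04 ± 0.26), ECM1, a glycoprotein of the skin matrix (3.97 ± 0.06), DHRS9, a retinol dehydrogenase (3.95 ± 0.09), SPRR1B, a cornified envelope precursor (3.92 ± 0.28), the long non-coding RNA LINC00973 (3.803 ± 0.07), SPTSSB, a subunit of serine palmitoyltransferase (3.62 ± 0.07), MSLN, the surface antigen mesothelin (3.48 ± 0.08), and KISS1, the precursor of kisspeptin (3.36 ± 0.18). The values of UPK2 were 0.435, 0.573 and 0.486 TPM under uracil and 14.8, 16.4 and 16.8 TPM under 5-FU. Means went from 1.62 to 31.6 TPM for ECM1 and from 6.61 to 109.7 TPM for LINC00973, and the 3 treated libraries lay above the 3 controls for each of the 12 genes.

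The 12 largest decreases of such genes included transport, transcription factor and metal-binding genes. CLDN2, the pore-forming claudin of leaky epithelia, was at 31.7, 32.8 and 29.8 TPM under uracil and fell to 4.19, 4.24 and 4.503 TPM under 5-FU. Its log2 fold change was -3.11 ± 0.06 (adjusted p = 1.54e-16). It was followed by ADAMTS6, a secreted metalloprotease (-2.68 ± 0.09), HNF4G, a hepatocyte nuclear factor of the gut epithelium (-2.46 ± 0.07), RARRES1 (-2.41 ± 0.08), the metallothioneins MT1E (-2.39 ± 0.06) and MT1X (-2.27 ± 0.12), PIR, a nuclear iron-binding protein (-2.35 ± 0.09), the linker histone gene H1FX (-2.29 ± 0.07), MYB, a transcription factor of progenitor cells (-2.18 ± 0.06), BTG2, an antiproliferative gene (-2.101 ± 0.08), ASNS, asparagine synthetase (-1.97 ± 0.05), and HMMR, a microtubule-associated hyaluronan receptor (-1.91 ± 0.05). MT1E fell from 143, 151 and 152 TPM to 36.5, 35.4 and 34.3 TPM, and the metallothioneins are near-identical copies whose reads could be shared out differently by another quantification.

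**Figure D2:**
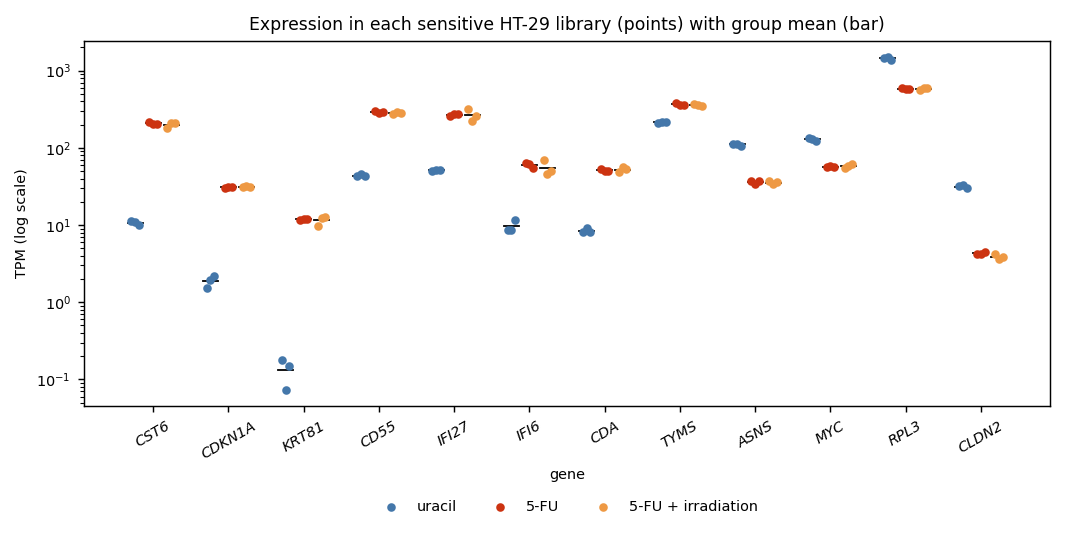
TPM on a log scale (vertical axis) of 12 genes in each sensitive HT-29 library, with blue points for uracil, red for 5-FU and orange for 5-FU with irradiation, and a bar at each group mean. For each of the 12 genes the 3 uracil libraries lie apart from the 3 5-FU libraries, while the 5-FU and 5-FU with irradiation points lie beside each other.

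Genes for which the uracil libraries held at most 3 counts each and every 5-FU library at least 1 TPM numbered 20 among the called genes, and 13 of them have a symbol. GAST, the precursor of the stomach hormone gastrin, was listed at 0 in the uracil libraries and at 4.29, 6.68 and 5.74 TPM under 5-FU, which is at least 16.7-fold higher against a limit of 3 counts per library. SPRR1A was at least 6.94-fold higher on the same limit, and the long non-coding RNA LINC01983 at least 5.24-fold. KRT16P6 (12.7-fold at least) and HMGB2P1 (5.08-fold at least) are pseudogene copies, whose reads may belong to their parent genes, and TRBV30 (4.44-fold at least) is a T-cell receptor segment. In the opposite direction 1 called gene was found, under a clone name, and it is described with the irradiated libraries.

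The interferon-stimulated genes, which carry out the antiviral programme downstream of interferon receptors, moved in 1 direction. Of 54 tested, 34 rose, 0 fell and 20 did not pass the test, with a median log2 fold change of 1.31 beside 0.04 for all genes tested and with 9.7% of all genes rising. Interferons bind their receptors, which activate transcription factors that bind the interferon-stimulated response element (ISRE) in the promoters of their targets. The letters GAAA, any 2 bases and GAAA again, searched on both strands from 250 bases before to 50 bases after the RefSeq start (GRCh38.p14), occurred in 17 of the 26 rising members that matched a promoter by symbol, in 26 of the 41 matched members, and in 3.65% of all 27305 promoters. Of the rising members with a mean of at least 1 TPM in a group that hold these letters before their start, the 4 with the largest fold are printed to place the element, read 5′ to 3′ on the strand of the gene, with the copy nearest the start in capitals. There were 3, 2, 2 and 2 copies before the start of IFI6, IFI27, IFITM3 and IFI44L, either strand counted, and the others are left in lower case where the window holds them. The windows are chr1:27672236-27672325 (minus strand), chr14:94110601-94110690 (plus), chr11:320861-320935 (minus) and chr1:78620335-78620424 (plus), and the first letter in capitals lies 93, 95, 35 and 73 bases before the start of IFI6, IFI27, IFITM3 and IFI44L.
IFI6: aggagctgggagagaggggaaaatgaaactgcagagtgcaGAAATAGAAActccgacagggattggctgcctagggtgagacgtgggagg
IFI27: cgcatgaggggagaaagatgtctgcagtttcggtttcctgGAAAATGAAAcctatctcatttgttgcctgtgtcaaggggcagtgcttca
IFITM3: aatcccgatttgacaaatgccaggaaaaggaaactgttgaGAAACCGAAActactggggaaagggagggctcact
IFI44L: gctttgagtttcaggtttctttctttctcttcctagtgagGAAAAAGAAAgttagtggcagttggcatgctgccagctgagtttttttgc
A match of letters is a description of the window and was not measured as binding.

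IFI6, a mitochondrial interferon-induced protein, was at 8.65, 8.63 and 11.5 TPM under uracil and at 63.4, 61.96 and 54.5 TPM under 5-FU, a log2 fold change of 2.46 ± 0.13 (adjusted p = 2.2e-11). IFI27 was at 49.5, 52.03 and 51.5 TPM and at 259.8, 275 and 275 TPM, with 2.26 ± 0.09 (adjusted p = 3.06e-13). For both genes the lowest treated library lay far above the highest control library. IFITM3, a membrane protein that blocks virus entry, was at 9.17, 9.64 and 12.2 TPM and at 49.8, 52.2 and 51.2 TPM (2.12 ± 0.09, adjusted p = 7.36e-13). ISG15, a ubiquitin-like modifier, was among the most abundant members, at 115, 116 and 114 TPM under uracil and at 485, 465 and 443 TPM under 5-FU (1.803 ± 0.05, adjusted p = 4.58e-15). The enzyme that charges it, UBA7, rose by a log2 fold change of 2.29 ± 0.15. Further increases were those of XAF1, an apoptosis-associated factor (2.63 ± 0.25), of MX1, a dynamin-like antiviral GTPase (2.21 ± 0.13), and of IFIT1, which binds foreign RNA ends (1.57 ± 0.09).

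Most interferon genes were near the limit of detection. IFNE, interferon epsilon, named after its values were seen, was the exception, at a mean of 3.15 ± 0.901 TPM (SD, n = 3) under uracil and 6.74 ± 0.13 TPM under 5-FU, and its log2 fold change of 0.88 ± 0.13 (adjusted p = 1.43e-05 in edgeR) was under the 2-fold limit. IFNB1, interferon beta, held at most 1 count in a uracil library and at most 5 in a 5-FU library, and IL6, the gene of the cytokine interleukin-6, was listed at 0 in the 6 libraries. IFNL1, interferon lambda, was at 0.183, 0.145 and 0.401 TPM under uracil and at 0.278, 0.273 and 0.417 TPM under 5-FU, so the groups overlapped (0.25 ± 0.52, adjusted p = 0.699), and at this level a difference was not detectable. Among the 8 members tested of the interferons and their receptors, 1 rose, the lambda receptor chain IFNLR1 (1.52 ± 0.12), from 0.693, 1.29 and 0.5504 TPM to 2.73, 3.72 and 2.91 TPM. Of 16 RNA and DNA sensing genes, 4 rose, namely ZBP1 (1.97 ± 0.31), the dNTP hydrolase SAMHD1 (1.23 ± 0.05), DDX58, which encodes the RNA sensor RIG-I (1.17 ± 0.06), and the RNA sensor IFIH1 (1.15 ± 0.07). For ZBP1 the TPM values of the groups overlapped, since uracil library 3 was at 1.78 TPM.

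Antigen presentation genes also moved upward. Of 22 genes of the MHC class I list, 10 rose and 0 fell, with a median log2 fold change of 0.76. HLA-C was at 18.6, 18.6 and 16.99 TPM under uracil and at 67.8, 59.9 and 58.5 TPM under 5-FU (1.53 ± 0.06, adjusted p = 4.21e-13). HLA-B was at 13.1, 11.1 and 10.1 TPM and at 29.8, 31.7 and 28.3 TPM (1.28 ± 0.06), and HLA-F rose by 1.76 ± 0.11. The immunoproteasome subunits PSMB9 (1.79 ± 0.24) and PSMB8 (1.17 ± 0.09) and the transcriptional activator of the class I genes, NLRC5 (1.51 ± 0.22), also rose. B2M, the invariant light chain, was at 1194, 1121 and 1076 TPM and at 2470.2, 2238 and 2315 TPM. It did not reach the 2-fold limit, at 0.78 on the log2 scale. HLA genes share sequence and vary between people, so the split of reads among them by an annotation-based quantification is uncertain.

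NF-kB target cytokines and feedback genes rose in 14 of 34 cases and fell in 0, with a median of 0.86. CSF2, the growth factor GM-CSF, was at 0.133, 0.0793 and 0.1097 TPM under uracil and at 3.802, 3.81 and 3.799 TPM under 5-FU (4.86 ± 0.27, adjusted p = 2.95e-11). LTB, lymphotoxin beta (3.11 ± 0.28), IL23A, a subunit of interleukin-23 (3.06 ± 0.23), BIRC3, an inhibitor of apoptosis (2.41 ± 0.07), and TNFAIP3, a feedback inhibitor of NF-kB (2.29 ± 0.11), rose as well, each from below 2 TPM. The letters GGG, any 3 bases and TTCC, an NF-kB site searched on both strands, occurred in 5 of the 11 rising members with a promoter, in 14 of 30 members and in 6.47% of all promoters. The windows of LTB (chr6:31582462-31582551, minus strand) and BIRC3 (chr11:102317245-102317334, plus strand) are printed with the match in capitals.
LTB: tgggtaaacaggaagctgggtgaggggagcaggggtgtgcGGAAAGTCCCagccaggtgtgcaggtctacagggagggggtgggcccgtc
BIRC3: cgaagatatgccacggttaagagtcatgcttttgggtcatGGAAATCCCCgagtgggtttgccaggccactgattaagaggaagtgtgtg
CXCL8, the neutrophil chemokine interleukin-8, was at 19.01, 17.97 and 17.2 TPM and 36.9, 39.1 and 36.1 TPM, with no overlap between the groups. Its log2 fold change of 0.78 ± 0.06 was under the limit.

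In the interleukin-1 family and its receptors, 7 of 12 rose, 0 fell and the median was 1.896. IL1B was at 0.0975, 0.136 and 0.287 TPM and at 1.37, 1.497 and 1.48 TPM (2.85 ± 0.28, adjusted p = 5.75e-08). The largest level was that of an antagonist, IL1RN, at 8.399, 9.26 and 6.97 TPM under uracil and at 58.3, 61.9 and 59.2 TPM under 5-FU (2.58 ± 0.08). IL36RN, the antagonist of interleukin-36, rose by 3.08 ± 0.09, and so did the receptors IL1R1 (2.26 ± 0.12) and IL1R2, a decoy (1.73 ± 0.14). Thus ligand, antagonists and receptors rose together. Of 26 genes of senescence and its secreted factors, 12 rose and 1 fell. Those that rose included PLAU, the urokinase plasminogen activator (3.28 ± 0.10), and TIMP2, a metalloprotease inhibitor (2.34 ± 0.05). They also included the cell cycle inhibitors CDKN1A and CDKN2B, which are not secreted. CXCL8, CXCL1 and IL1A were among the 13 not called. Of 23 complement genes, 8 rose and 0 fell.

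CD55, the decay-accelerating factor that protects cells from complement (chr1:207321519-207386804), was 1 of those 8. It was at 43.03, 45.5 and 42.6 TPM in the uracil libraries and at 302, 282 and 288 TPM in the 5-FU libraries. The groups did not overlap and the replicates of each lay close together, with a log2 fold change of 2.48 ± 0.05 (adjusted p = 9.04e-17). CD59, which blocks the membrane attack complex and was the most abundant member of the list, rose from a mean of 234 to 647 TPM (log2 fold change 1.22 ± 0.05), and is named here after its values were seen. C4BPB, a soluble regulator, rose from 6.95, 5.82 and 6.71 TPM to 69.8, 66.7 and 71.5 TPM (3.07 ± 0.06), and clusterin, CLU, rose by 1.797 ± 0.08. GDF15, a stress cytokine, was at 63.5, 62.1 and 55.1 TPM and at 280.0, 288 and 281 TPM (2.04 ± 0.06).

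Keratins showed the largest median of the lists, at 2.21, and 12 of 16 tested rose while 0 fell. KRT7 was at 5.67, 5.2004 and 4.605 TPM under uracil and at 45.2, 42.7 and 42.4 TPM under 5-FU (2.85 ± 0.08, adjusted p = 3.79e-15). KRT20, a keratin of differentiated colonocytes, was at 159, 172 and 153 TPM and at 563, 557 and 551 TPM (1.54 ± 0.06). KRT17 rose by 2.94 ± 0.10, and the hair keratins KRT83 (3.14 ± 0.16) and KRT86 (2.96 ± 0.12), close in sequence to KRT81, rose too, so the division of reads between these 3 is uncertain. The major simple-epithelial keratins did not pass: KRT8 was at 3865, 4035 and 3716 TPM and at 6319, 6322 and 6394 TPM (0.48 on the log2 scale), and KRT18 at 3409, 3596 and 3225 TPM and at 5391, 5273 and 5297 TPM (0.41). Of 25 cornified envelope and epidermal genes, 16 rose and 0 fell, with a median of 1.47. Besides CST6 and ECM1, these included SPRR1B, which went from 0.775, 0.358 and 1.34 TPM to 11.5, 15.4 and 14.5 TPM, SPRR3 (3.02 ± 0.23) and the epidermal protease KLK5 (3.34 ± 0.23).

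Colonocyte differentiation genes moved both ways, with 7 of 21 higher and 4 lower. CEACAM6, a cell adhesion molecule, rose from 6.57, 7.64 and 6.62 TPM to 37.8, 38.7 and 38.7 TPM (2.22 ± 0.06), GUCA2A, the precursor of guanylin, rose by 3.26 ± 0.30 and CEACAM5 by 1.52 ± 0.06. In contrast, the transcription factor gene HNF4A fell, from 17.6, 17.3 and 17.3 TPM to 7.08, 7.01 and 6.63 TPM (-1.67 ± 0.05, adjusted p = 5.95e-15), and UNC93A (-4.66 ± 0.39) fell as well. Mucin, trefoil factor and goblet cell genes rose in 9 of 21 cases and fell in 2 (4 with no filter on low counts and 0 among genes of at least 1 TPM), the former including MUC4 (2.89 ± 0.16), TFF1 (2.47 ± 0.18) and TFF2 (2.31 ± 0.13). The 2 that fell were the goblet cell list members ATOH1 (log2 fold change -5.08) and FCGBP (-2.63). TFF3 (0.17), SPDEF (0.199) and AGR2 (-0.03) were not called. Genes of WNT signalling and intestinal stem cells had a median of -0.35, with 3 of 24 higher and 5 lower. The stem cell genes ASCL2 (3.52, 3.297 and 3.16 TPM against 0.682, 0.453 and 0.419 TPM, -2.89 ± 0.18) and LGR5 (7.06, 6.89 and 7.78 TPM against 3.005, 3.14 and 3.23 TPM, -1.31 ± 0.06) fell. DKK1, a secreted WNT inhibitor, rose from 15.9, 17.98 and 13.4 TPM to 112, 99.1 and 107 TPM (2.54 ± 0.07). PROX1 (log2 fold change 2.75) and EPHB2 (1.32), on the same list, were also called higher, so its members moved both ways.

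Targets of YAP and SRF, which respond to cell shape and adhesion, rose in 14 of 30 cases and fell in 0, with a median of 0.83. AXL, a receptor tyrosine kinase, was at 2.41, 2.56 and 2.36 TPM under uracil and at 24.9, 25.2 and 24.4 TPM under 5-FU (3.12 ± 0.07, adjusted p = 5.97e-16). The caveolins CAV1 (2.95 ± 0.08) and CAV2 (2.41 ± 0.07), the matricellular CCN1 (2.51 ± 0.11) and the laminin chain LAMA3 (2.59 ± 0.05) rose. Of 32 EGFR ligands and MAPK feedback genes, 9 rose and 2 fell, including the phosphatase DUSP5, from 3.46, 3.305 and 2.91 TPM to 28.7, 31.03 and 33.4 TPM (3.05 ± 0.08), and the ligand HBEGF (1.91 ± 0.08).

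**Figure D3:**
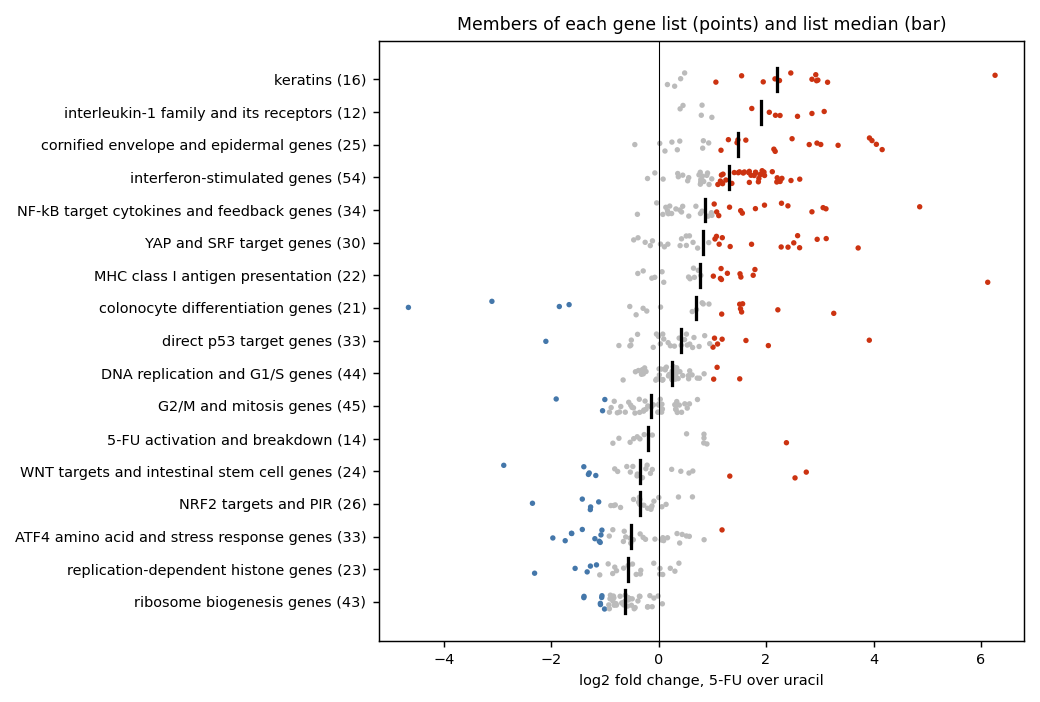
Log2 fold change of 5-FU over uracil (horizontal axis) for each tested member (point) of 17 gene lists (vertical axis, number tested in parentheses), with red for called higher, blue for called lower, grey for not called and a black bar at the median. Medians run from 2.21 for keratins to -0.63 for ribosome biogenesis genes.

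The opposite direction was seen for ribosome production, amino acid supply and related genes. Of 43 ribosome biogenesis genes, 7 fell and 0 rose, and 42 of the 43 log2 fold changes were below 0, with a median of -0.63 (-0.48 by library size). MYC, a transcription factor that drives this programme, was at 133, 132 and 122 TPM under uracil and at 56.3, 58.1 and 57.3 TPM under 5-FU (-1.39 ± 0.06, adjusted p = 4.82e-13). NPM1, nucleophosmin of the nucleolus, was at 2695, 2811 and 2517 TPM and at 1608, 1478 and 1513 TPM (-1.06 ± 0.05, adjusted p = 1.2e-11). NAT10, which acetylates rRNA (-1.39 ± 0.04), fell, and the assembly factors NOP16 (-1.09 ± 0.05), DDX10 (-1.08 ± 0.06) and WDR12 (-1.06 ± 0.05) fell too. The pseudouridine synthases RPUSD2 (-1.01 ± 0.07) and RPUSD4 (-1.14 ± 0.04) fell, as 2 of 18 genes of rRNA and tRNA modification. By library size alone, 2 of the 43 biogenesis genes were called instead of 7.

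RPL3, the ribosomal protein at the peptidyl transferase centre, was at 1475, 1488 and 1389 TPM under uracil and at 592, 578 and 586 TPM under 5-FU. Each treated library lay below each control library, with a log2 fold change of -1.55 ± 0.05 (adjusted p = 4.05e-14). RPL7 (-1.04 ± 0.05) and RPL36A (-1.03 ± 0.05) fell near the limit, and RPL22L1 was at 108, 91.7 and 94.2 TPM and 70.3, 79.7 and 72.2 TPM (-0.61 ± 0.06). Over the 76 ribosomal protein genes of at least 10 TPM, a set chosen after its values were seen, 17 fell, 0 rose and 75 had a log2 fold change below 0, with a median of -0.80 (-0.65 by library size). These 76 genes made up between 15.5% and 16.6% of the TPM of the uracil libraries and between 10.7% and 10.9% of the TPM of the 5-FU libraries. TPM values sum to the same total in each library, and the part of this share in the TPM ratios of other genes was not tested. Ribosomal protein genes have many processed pseudogenes, with which reads could be shared.

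Of 33 ATF4 targets of amino acid supply and stress, 10 fell and 1 rose, with a median of -0.52. Between 6 and 10 fell under other settings. ASNS was at 113, 112 and 107 TPM under uracil and at 37.3, 34.2 and 37.1 TPM under 5-FU (-1.97 ± 0.05, adjusted p = 1.11e-15). PYCR1, the last enzyme of proline synthesis, was at 89.9, 94.9 and 89.97 TPM and at 32.3, 33.5 and 33.1 TPM (-1.74 ± 0.05). The amino acid transporters SLC7A5 (-1.62 ± 0.05) and SLC7A11 (-1.42 ± 0.05) and the serine pathway enzymes PSAT1 (-1.19 ± 0.05) and SHMT2 (-1.08 ± 0.05) fell, and so did ATF4 itself, from 281, 294 and 259.5 TPM to 153, 155 and 158 TPM (-1.06 ± 0.05). Among 26 NRF2 targets and PIR, 5 fell and 0 rose, including the glutathione peroxidase GPX2 (1083, 1117 and 1019 TPM against 471, 535 and 542 TPM, -1.27 ± 0.06) and the aldo-keto reductase AKR1B10 (-1.27 ± 0.06). Unfolded protein response, RNA exosome and cholesterol synthesis genes had 0 called members of 25, 25 and 24 tested in edgeR, and DESeq2 also called 0 in each of these lists. An unadjusted p under 0.05 in edgeR was found for 24, 18 and 22 of them, beside 13662 of all 21573 genes tested. The medians were -0.25, -0.26 and -0.29.

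Direct p53 target genes were mixed, with 7 of 33 higher and 1 lower and a median of 0.42. Other settings gave between 5 and 9 higher members. Beside CDKN1A and GDF15, the stress gene TP53INP1 (1.62 ± 0.09) and the kinase gene PLK3 (1.04 ± 0.06) rose, whereas BTG2 fell. MDM2, a ubiquitin ligase gene, was at 24.2, 26.7 and 29.1 TPM and at 38.3, 34.99 and 36.1 TPM and its log2 fold change was 0.09 ± 0.04 (adjusted p = 0.0645). CDKN1A had the largest change of the list, while the change of MDM2 did not pass the test.

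Few proliferation genes passed the 2-fold limit. Of all genes tested, 9.7% were called higher and 3.38% lower, and 52.6% had a log2 fold change above 0. Log2 fold changes were above 0 for 34 of 44 DNA replication and G1/S genes and for 19 of 45 G2/M and mitosis genes. Of the 44 DNA replication and G1/S genes, 3 rose and 0 fell, with a median of 0.25. These were CCNE2, cyclin E2, from a mean of 15.2 ± 0.731 (SD, n = 3) to 50.7 ± 1.35 TPM (1.51 ± 0.06), the checkpoint adaptor CLSPN (1.09 ± 0.04) and the transcription factor E2F2 (1.02 ± 0.06). Of 45 G2/M and mitosis genes, 3 fell and 0 rose, with a median of -0.14, namely HMMR, from 51.3, 50.6 and 52.5 TPM to 16.1, 15.8 and 16.4 TPM (-1.91 ± 0.05), the kinase AURKA (-1.05 ± 0.05) and the anaphase activator CDC20 (-1.003 ± 0.05). Other settings called between 1 and 3 of the G2/M genes lower. MKI67 was at 64.5, 67.6 and 80.6 TPM and 92.9, 100.0 and 104 TPM (0.32), and CDK1 at 163, 158 and 149 TPM and 286, 276 and 272 TPM (0.57), both under the limit. CCNB1, cyclin B1, lay on the other side at 295, 315 and 295 TPM and 215, 203 and 199 TPM (-0.77). Of 23 replication-dependent histone genes tested, 5 fell and 0 rose, although their mRNAs lack a poly(A) tail and summed to no more than 111 TPM under uracil and 76.9 TPM under 5-FU. These genes have near-identical copies, so the split of reads between them is uncertain.

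Most genes of the drug's metabolism and of pyrimidine salvage were below the limit. Of 14 genes on the list of 5-FU activation and breakdown, which also holds pyrimidine salvage genes, 1 rose. This was CDA, cytidine deaminase of the salvage pathway, from 8.19, 9.08 and 8.12 TPM to 53.3, 50.6 and 50.2 TPM (2.38 ± 0.08, adjusted p = 2.51e-14). TYMS, the target thymidylate synthase, was at 209.9, 216 and 213 TPM under uracil and at 379.9, 362 and 363 TPM under 5-FU, without overlap (0.51 ± 0.05, adjusted p = 2.27e-08). Thymidine kinase TK1 was at 247, 258 and 235 TPM and 538, 514 and 516 TPM (0.84 ± 0.05), and uridine phosphorylase UPP1 at 13.8, 14.2 and 12.8 TPM and 30.6, 31.1 and 29.9 TPM (0.898 ± 0.06), which was called higher by library size alone, at 1.05. DPYD, which starts the breakdown of 5-FU, was low, at 1.57, 1.46 and 1.48 TPM and 3.32, 3.23 and 2.84 TPM (0.84 ± 0.13). UMPS, the phosphoribosyl transferase route, was at 65.9, 72.03 and 66.3 TPM and 66.9, 69.1 and 74.7 TPM with overlapping groups (-0.12 ± 0.05), and the sign of its change flipped to 0.03 with library size as the scaling. DHODH, the preceding enzyme of pyrimidine synthesis, fell from 15.7, 13.2 and 14.6 TPM to 6.92, 6.38 and 6.98 TPM (-1.21 ± 0.06). Among 15 drug efflux pumps and nucleoside transporters, 1 rose and 2 fell, including ABCG2, an efflux pump (64.6, 64.9 and 59.4 TPM against 30.5, 29.9 and 29.5 TPM, -1.34 ± 0.05), and the nucleoside transporter SLC28A3 (-1.004 ± 0.05), which fell, and the efflux pump ABCB1, named after its values were seen, which was called higher at 1.600 ± 0.23. Its mean TPM values, 0.415 and 0.617, differed by much less than this fitted change.

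Zinc finger genes moved little as a group. Among 458 tested genes with a symbol that begins with ZNF, with or without a KRAB domain, 17 rose and 13 fell, with a median of -0.02 (0.13 by library size). Of all genes tested, 9.7% rose and 3.38% fell, so a smaller share of the ZNF genes than of all genes rose. Of 23 TRIM28 partners and DNA methyltransferases, 0 were called in edgeR, 0 higher and 0 lower in DESeq2, with a median of -0.25. An unadjusted p under 0.05 in edgeR was found for 18 of them, beside 13662 of all 21573 genes tested. Some genes used as markers of other cell types also changed at low levels in these cultures, as 3 of 5 tested endothelial markers rose and 1 fell, among them PECAM1 (mean 0.332 to 3.84 TPM, 2.35 ± 0.19), and 3 of 4 fibroblast markers rose, among them LUM (0.455 to 2.08 TPM). CD68, a lysosomal protein, rose from a mean of 4.31 to 18.9 TPM and CD14 fell from 4.84 to 2.13 TPM, and the median of the 4 tested fibroblast and smooth muscle markers was 1.69. Their part in the other results was not tested.

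At the level of transcripts, shares of estimated counts assigned to some classes differed slightly. Retained-intron transcripts took 4.11% ± 0.390 (SD, n = 3) of counts under uracil and 4.64% ± 0.0774 under 5-FU, but uracil library 3 at 4.56% lay within the treated range of 4.56% to 4.71%. Nonsense-mediated decay transcripts took 2.87% ± 0.0238 and 3.06% ± 0.0397, with no overlap between groups, and lncRNA genes took 1.45% ± 0.142 and 1.83% ± 0.0287, also without overlap. Mitochondrially encoded RNA took 3.39% ± 0.773 under uracil and 3.05% ± 0.300 under 5-FU, within the spread of the uracil libraries. With 3 libraries against 3, an exact permutation test cannot give a p below 0.1, so no test was made of these shares.

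Irradiation after 5-FU gave few calls. Between the libraries of 5-FU with irradiation and those of 5-FU, 1 gene was higher (0.00464%) and 1 lower (0.00464%) of 21573 tested in edgeR (0.00927% in either direction), and 587 genes had an unadjusted p under 0.05. DESeq2 called 2 higher and 0 lower, so the lower edgeR call was not among its calls. Both edgeR calls carry clone names. AC011558.1 held 129, 60 and 47 counts in the uracil libraries, 0 in each 5-FU library and 34, 84 and 37 in the irradiated ones. AC116366.3 held 1218, 587 and 547 counts under 5-FU and 41, 81 and 79 with irradiation. The irradiated libraries lay near the 5-FU values for genes named in the first comparison, with CDKN1A at 31.1, 32.3 and 31.2 TPM, CST6 at 182, 207 and 208 TPM, IFI27 at 317, 224 and 261 TPM and ASNS at 37.1, 33.7 and 35.8 TPM. As both treatments are compared with the same uracil libraries, their responses are given side by side and not as independent results. The time between irradiation and harvest is not given in the sources used here.

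The response of sensitive HT-29 was then set against those of sensitive HCT-116 and DLD-1 in 1 fit of 18 libraries, in which the difference between responses was itself tested. Of 24461 genes, 2168 (8.86%) had a response higher in HT-29 than in HCT-116 and 939 (3.84%) a lower one, 12.7% in all. Against DLD-1, 1441 (5.89%) were higher and 373 (1.52%) lower, 7.42% in all. These differences include genes that are expressed in one line and not in another. Within the same fit 1160 genes rose (4.74%) and 779 fell (3.18%) in HCT-116, 7.93% in all. In DLD-1, 633 rose (2.59%) and 326 fell (1.33%), 3.92% in all, and in HT-29 2340 rose (9.57%) and 674 fell (2.76%), 12.3% in all.

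Interferon-stimulated genes responded more in HT-29 than in the other lines. In this fit 35 of 54 rose in HT-29, 3 rose and 1 fell in HCT-116, and 2 rose and 1 fell in DLD-1, with medians of 1.35, 0.09 and -0.04. The difference itself was called for 29 members against HCT-116 and 33 against DLD-1. IFI27 illustrates it, with a log2 fold change of 2.31 in HT-29, -0.17 in HCT-116 and -0.18 in DLD-1, and IFI6 had 2.51, -0.19 and 0.09. In the MHC class I list the difference was called for 11 of 22 members against HCT-116 and 9 against DLD-1, with HLA-C at 1.58, -0.24 and 0.04 in the 3 lines.

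Cell cycle genes separated HT-29 from HCT-116. Of 45 G2/M and mitosis genes, 43 fell in HCT-116, 1 in HT-29 and 0 in DLD-1, with medians of -1.77, -0.09 and 0.13. The response of HT-29 was called higher than that of HCT-116 for 40 of the 45, and against DLD-1 it was called higher for 0 and lower for 5. G1/S genes followed, with 29 of 44 lower in HCT-116 and 35 responses called higher in HT-29. MKI67 had a log2 fold change of 0.37 in HT-29, -1.65 in HCT-116 and 0.07 in DLD-1, and TYMS of 0.56, -1.33 and -0.09.

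Among p53 targets, CDKN1A rose by 3.97 in HT-29, 1.61 in HCT-116 and was at -0.37 in DLD-1, and its response in HT-29 exceeded that in HCT-116 by 2.36 ± 0.09 (adjusted p = 9.05e-17). MDM2 had the reverse order, with 0.14 in HT-29 and 1.31 in HCT-116, a difference of -1.17 ± 0.05 (adjusted p = 3.85e-15). BTG2 was at -2.06 in HT-29 and 1.01 in HCT-116. Over the list, 3 of 33 responses were called higher in HT-29 than in HCT-116 and 6 lower. For CD55 the 3 lines gave 2.53, -0.51 and 0.22, with a difference of 3.04 ± 0.07 against HCT-116 and 2.31 ± 0.07 against DLD-1.

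Ribosome biogenesis genes had medians of -0.58 in HT-29, 0.103 in HCT-116 and -0.07 in DLD-1, and the response of HT-29 was called lower for 9 of 43 against HCT-116 and 1 against DLD-1. MYC was at -1.35, 0.51 and -0.65 in the 3 lines, and RPL3 at -1.504, -0.57 and -0.82. For the ATF4 list, 2 responses were called higher in HT-29 than in HCT-116 and 4 lower. The balance was the other against DLD-1, where 17 of 33 fell and 9 responses were called higher in HT-29 and 0 lower. ASNS fell in the 3 lines, at -1.92, -1.27 and -2.46, and so did PIR, at -2.301, -1.77 and -2.26. Keratins rose in 12 cases in HT-29, 7 in HCT-116 and 4 in DLD-1 of 16, and the HT-29 response was called higher than that of HCT-116 for 6 and lower for 1, and higher than that of DLD-1 for 8 and lower for 1.

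**Figure D4:**
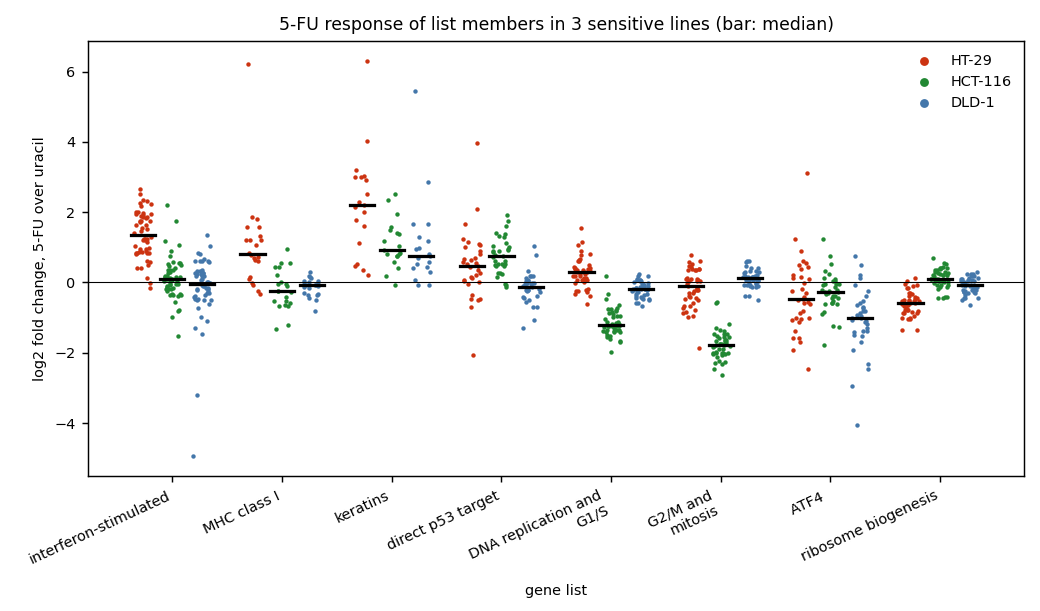
Log2 fold change of 5-FU over uracil (vertical axis) for the members tested in the 18-library fit (points) of 8 gene lists (horizontal axis) in sensitive HT-29 (red), HCT-116 (green) and DLD-1 (blue), with a bar at each median. The interferon-stimulated genes lie above 0 in HT-29, apart from a few members, with a median of 1.35, and the G2/M genes lie below 0 in HCT-116, with a median of -1.77.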

How the data were processed

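Per the labels and the study's methods, poly(A)-selected directional libraries were sequenced as paired reads, trimmed with Trimmomatic 0.36, checked with FastQC 0.11.8 and quantified with kallisto 0.44.0 against the GRCh38.p13 transcriptome (Ensembl 98). The authors deposited estimated counts and TPM (scaled for transcript length and library size) for each transcript and library. Estimated counts were summed per gene name and rounded here. TPM was summed likewise and used for levels only.

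The 9 sensitive HT-29 libraries were fitted together in edgeR 4.0.16 (R 4.3.3) with TMM scaling, filterByExpr and the quasi-likelihood test. Differences between lines were tested as interactions in 1 fit of 18 sensitive libraries. A call required p of no more than 0.01 after Benjamini-Hochberg adjustment over all genes tested, and a 2-fold change. Standard errors are the log2 fold change divided by the square root of F. DESeq2 1.42.0, other scalings, filters, thresholds, a replicate block and leaving out each library were alternatives. On simulated data for the 5-FU comparison, 98 of 100 genes changed 2.5-fold and 100 of 100 changed 4-fold were recovered. For the differences from HCT-116, 92 and 92 of 100 were recovered, and from DLD-1, 82 and 95. These simulations changed only genes with high mean counts, equally many up and down, and gave every gene the same spread. They do not show the recovery among genes with low counts or with a larger spread.

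Gene lists and members were chosen with earlier results of these data known, so no list was tested. Named genes were the 12 largest increases and decreases of at least 10 TPM, up to 6 called members per list of at least 1 TPM, a set of drug, p53, interferon and list-defining genes whatever their result, the 8 largest differences each way from both other lines, and genes with at most 3 counts in each library of one group. Some genes that these rules name are not reported here. Promoter letters were read from RefSeq (GRCh38.p14), and gene positions from GENCODE 44. Libraries labelled resistant were used in 1 alternative fit only. Those labelled resistant HT-29 were kept out of the main fit because they carried HCT-116 markers in earlier results of these data.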

Additional observations from a re-analysis of the deposited data

Results flagged for a closer look

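The differences between the 5-FU responses of sensitive HT-29 and of the other sensitive lines, tested as interaction terms in edgeR, are listed here because the response differed between groups under the same treatment. The response was higher in HT-29 for 2168 genes against HCT-116 and for 1441 against DLD-1, and lower for 939 and 373. The 16 genes named here are those with the largest difference in the same direction against both lines, among genes of at least 10 TPM in an HT-29 group.

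In the upward direction, KRT81 exceeded its response in HCT-116 by 4.72 ± 0.22 log2 units (± SE) and in DLD-1 by 5.01 ± 0.24. For ECM1 the differences were 4.29 ± 0.10 and 3.22 ± 0.09, for FAM25A 3.799 ± 0.37 and 3.44 ± 0.52, and for SPTSSB 3.69 ± 0.14 and 2.85 ± 0.12. The phosphatase gene DUSP5 had 3.24 ± 0.11 and 2.76 ± 0.11, and the membrane protein gene EMP3 2.700 ± 0.11 and 3.63 ± 0.19. ELF5, an epithelial transcription factor, was at 3.24, 3.85 and 3.42 TPM under uracil and 27.7, 28.1 and 27.7 TPM under 5-FU in HT-29, with differences of 2.91 ± 0.32 and 2.69 ± 0.39. IFI27 had 2.48 ± 0.43 and 2.49 ± 0.40.

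In the downward direction, the metallothioneins MT1E (-2.86 ± 0.07 against HCT-116 and -2.45 ± 0.07 against DLD-1) and MT1X (-2.39 ± 0.11 and -1.85 ± 0.11) share near-identical sequence. CFTR, the chloride channel of the gut epithelium, fell from 15.8, 15.4 and 13.2 TPM to 5.98, 5.73 and 7.05 TPM in HT-29, with differences of -2.53 ± 0.39 and -1.75 ± 0.10. KCNE3, a potassium channel subunit of the same epithelium, fell from 45.1, 43.4 and 44.6 TPM to 17.99, 19.1 and 19.2 TPM, with -2.19 ± 0.27 and -1.63 ± 0.06. CLDN2 differed by -2.12 ± 0.11 and -1.75 ± 0.08, HPDL by -2.44 ± 0.26 and -2.56 ± 0.38, and FGFR4, a fibroblast growth factor receptor, by -1.56 ± 0.07 and -1.62 ± 0.08. The antisense RNA FOXP4-AS1 differed by -1.85 ± 0.26 and -1.79 ± 0.27.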

How the results depend on the processing

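With 3 libraries per group, single calls near the 2-fold limit were the least stable. Of 181 called named genes, 20 lost their call in at least 1 of 15 settings, among them CDC20, RPUSD2, SLC28A3 and FBL. No called named gene changed sign. UMPS, PCNA and MCM2, which were not called, turned from below to above 0 by library size alone, at 0.0309, 0.0950 and 0.11, and PCNA and MCM2 also among genes of at least 1 TPM, at 0.0004 and 0.0157.

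The counts of 2092 higher and 730 lower genes ran from 1890 to 2182 and from 680 to 773 when 1 library was left out, and were 1924 and 663 after thinning the 9 libraries to the lowest total, a setting chosen after seeing the data. By library size alone 454 genes were lower. A log2 threshold of 2 left 652 higher and 80 lower, and adjusted p alone called 5275 and 5703. The responses that differed numbered 878 (log2 threshold of 2) and 9296 (adjusted p alone) against HCT-116, and 518 and 7389 against DLD-1, with ranges of 2948 to 3075 and 1702 to 1799 when 1 library was left out. For irradiation the 2 called genes became 1 by library size alone, 58 with no filter on low counts, 1 among genes of at least 1 TPM, 4 with the replicate block and 5 with only the 6 libraries compared, and ran from 1 to 3 when 1 library was left out.

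List counts of at least 3 in a direction that moved by more than 1.5 times were ribosome biogenesis (2 to 7 lower), ATF4 (6 to 10 lower), histones (3 to 7 lower), G2/M (1 to 3 lower), ribosomal protein paralogs (1 to 4 lower) and the leukocyte and endothelium markers (1 to 3 higher each). Counts under 3 moved too, as for mucins (0 to 4 lower) and gut hormones (0 to 2 lower). Interferon-stimulated genes stayed between 33 and 38 higher.

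The replicate numbers were not treated as pairs, because the deviations of uracil and 5-FU libraries with the same number correlated at between 0.0029 and 0.049. With the replicate block, 2054 genes were higher and 719 lower.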

Other observations

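The counts of further gene groups in HT-29 are to be read beside the 9.7% of all genes tested that were called higher and the 3.38% called lower. For the BCL2 family and the hypoxia-induced genes, the counts of higher members are near that background. Of 16 prostaglandin genes, 4 rose and 1 fell. PTGES, the prostaglandin E synthase, went from 1.14, 1.49 and 0.915 TPM to 8.18, 8.13 and 8.38 TPM (2.53 ± 0.12) and the receptor gene PTGER1 from 0.147, 0.174 and 0.216 TPM to 2.47, 2.78 and 2.46 TPM (3.66 ± 0.21), whereas PLA2G4A, the cytosolic phospholipase that releases arachidonic acid, fell from 30.6, 29.8 and 28.1 TPM to 11.2, 10.9 and 11.2 TPM (-1.66 ± 0.06). Of 7 gut hormone genes tested, 3 rose, namely GAST, CCK (3.16 ± 0.38) and KISS1. Of 19 death receptor and ligand genes, 4 rose and 0 fell, including the decoy receptor TNFRSF10D (6.35, 6.27 and 5.79 TPM to 22.2, 22.4 and 22.3 TPM, 1.62 ± 0.05) and the ligand TNFSF15 (1.82 ± 0.05). In the BCL2 family, the death-promoting members BMF (1.29 ± 0.06) and BIK (1.53 ± 0.20) rose and BCL2L14 fell (-1.72 ± 0.20), as 2 and 1 of 17.

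In lipid metabolism 4 of 22 genes rose and 1 fell, with SOAT1, which esterifies cholesterol, at 2.11 ± 0.08, PLIN2, a lipid droplet coat protein, at 1.21 ± 0.05, and ELOVL6, a fatty acid elongase, at -1.097 ± 0.05. Of 26 hypoxia-induced genes, 2 rose and 2 fell, ENO2 (2.13 ± 0.07) and ADM (1.14 ± 0.08) against CA9 (-1.57 ± 0.10) and PDK1 (-1.18 ± 0.06). Of 30 genes of mismatch repair and damage signalling, CDKN1A and CDKN2B (1.31 ± 0.05) rose and CDKN1C fell, from 10.2, 8.22 and 8.66 TPM to 1.47, 1.56 and 1.44 TPM (-2.88 ± 0.10). FN1, an adhesion gene, was called higher (1.12 ± 0.12) although its TPM values of 1.82, 2.42 and 2.62 under uracil and 2.22, 3.41 and 3.02 under 5-FU overlapped. The 13 mitochondrially encoded genes had 0 calls in edgeR and a median of -0.49, and DESeq2 called 0 higher and 0 lower. An unadjusted p under 0.05 in edgeR was found for 9 of them, beside 13662 of all 21573 genes tested. Of 16 tested genes of the ribosomal protein paralog list, which also holds the ribosomal protein genes that the paralogs resemble, 0 rose and 3 fell. The 3 were RPL3, RPL7 and RPL36A, which are among the ribosomal protein genes described above. By library size alone RPL7 (-0.89) and RPL36A (-0.88) were not called. The paralogs RPL3L, RPL7L1, RPL22L1, RPL26L1, RPL36AL, RPL39L and RPS27L were not called. Lists with few calls were thymidylate, folate and uracil removal (0 higher and 1 lower of 19), dNTP supply (1 higher and 1 lower of 16), adhesion (2 higher and 1 lower of 24) and lysosome genes (2 higher and 0 lower of 31).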
